A study of Oryza sativa with 16 samples.

Results

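Sugar transporters of the SWEET and SUT families were followed in rice seedlings under low nitrogen and low water. Of the 37849 genes counted in each library, 10 were selected by gene ID, of which 7 encode SWEET carriers and 3 encode SUT sucrose transporters. All 10 were counted in the same 16 libraries, which cover roots and shoots of the genotypes Nagina 22 (N22), a drought tolerant aus landrace, and IR64, a high yielding semi-dwarf indica variety. The seedlings were grown in pots with ammonium nitrate as their sole nitrogen source, with low nitrogen as the only stress (N-W+), with low water as the only stress (N+W-), under both stresses together (N-W-) or under neither (N+W+).

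Each combination of genotype, tissue and treatment was represented by 1 library, made from RNA of 3 biological replicates that had been pooled before library construction, so a ratio between 2 libraries has no replicate check. According to the labels, the plants of the N-W+ and N+W+ libraries were 15 days old and watered with 100 ml per day, whereas those of the N+W- and N-W- libraries received 10 ml per day until the age of 21 days. Low water and plant age therefore cannot be told apart where these ages hold, since the methods of the study differ from the labels in age, water volume and dose. For the nitrogen dose the labels disagree among themselves: the protocol gives 0.4 mM ammonium nitrate under nitrogen stress and 0.08 mM otherwise, while the sample descriptions of N-W+ give 0.04 mM, so no dose is attached to the group names. The read summary of the study also lists the IR64 stress libraries in an order other than that of the fragment totals behind the deposited values. The text of the study, however, names the IR64 N-W+ shoot library as the one with the fewest reads, which is also the library with the fewest fragments in the files, and green tissue markers summed to 25630 CPM in N-W+, 56990 CPM in N+W-, 14350 CPM in N-W- and 107400 CPM in N+W+ shoots of IR64. The labels of the files were used, and values of N22 and IR64 are given apart so that those of N22 can be read without IR64. The libraries held 8272195 to 13675454 exon reads in roots and 2420338 to 11379518 in shoots, with the fewest in the N22 shoot N-W+ library. That library did not have the fewest fragments. Exon reads made up a smaller share of its fragments than in any other library, below the 19.12 to 33.32% of the other shoot libraries. The reason for this low exon share was not tested. Markers of green tissue summed to between 7662 and 107400 CPM in shoots against 2.97 to 51.1 CPM in roots, and root markers to between 8.80 and 57.8 CPM in shoots against 1164 to 3871 CPM in roots. CPM denotes counts of exon reads scaled to library size with TMM factors, here within each tissue.

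Sucrose made in leaves leaves the cells around the veins through SWEET carriers, which let sugars pass down their concentration gradient, and is then loaded into the phloem by SUT transporters, which couple sucrose uptake to the entry of protons. At the other end of the path, carriers of both families pass sugar to roots, young leaves, pollen and grain. Some rice SWEET genes are also susceptibility genes, because bacterial blight pathogens (Xanthomonas oryzae) switch them on in infected leaves.

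The SWEET group comprised SWEET11 (Os08g0535200, also named Xa13), SWEET12 (Os03g0347500), SWEET13 (Os12g0476200), SWEET14 (Os11g0508600), SWEET15 (Os02g0513100), SWEET4 (Os02g0301100) and SWEET16 (Os03g0341300). On the IRGSP-1.0 assembly SWEET11 lies on chromosome 8 from 26725952 to 26728794, SWEET4 on chromosome 2 from 11592365 to 11596449, SWEET16 on chromosome 3 from 12729779 to 12731404 and SWEET12 on chromosome 3 from 13004689 to 13008130. SWEET13 is on chromosome 12 from 17302127 to 17305326, SWEET14 on chromosome 11 from 18171707 to 18174478 and SWEET15 on chromosome 2 from 18454408 to 18457136. The SUT group comprised SUT1 (Os03g0170900, chromosome 3 from 3797698 to 3804132), SUT2 (Os12g0641400, chromosome 12 from 27513968 to 27518105) and SUT4 (Os02g0827200, chromosome 2 from 35548813 to 35553439). All exon reads of the 10 genes were uniquely mapped, and no other annotated gene overlapped any of them.

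Levels between genes were compared per transcript length, in TPM. SWEET4, a hexose carrier known from grain filling, had the highest median level in both tissues, with 17.1 to 99.4 TPM (median 47.7) in shoots and 41.9 to 103.2 TPM (median 68.7) in roots. In roots it was followed by SUT2 (median 30.4 TPM), a sucrose exporter of the vacuole membrane, and by SUT4 (median 20.7 TPM), a further member of the sucrose transporter family. In shoots the second place was held by SWEET13 (median 37.6 TPM), a sucrose carrier and blight susceptibility gene, ahead of SUT2 (24.9 TPM), SWEET16 (22.9 TPM) and SUT1 (22.2 TPM). Among neighbours in these orders, only SWEET4 over SUT2 in roots and SUT4 over SWEET15 in shoots held in 8 of 8 libraries with ranges that did not overlap. The remaining neighbours kept their order in 3 to 7 of 8 libraries, so their ranks varied between libraries.

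**Figure D1:**
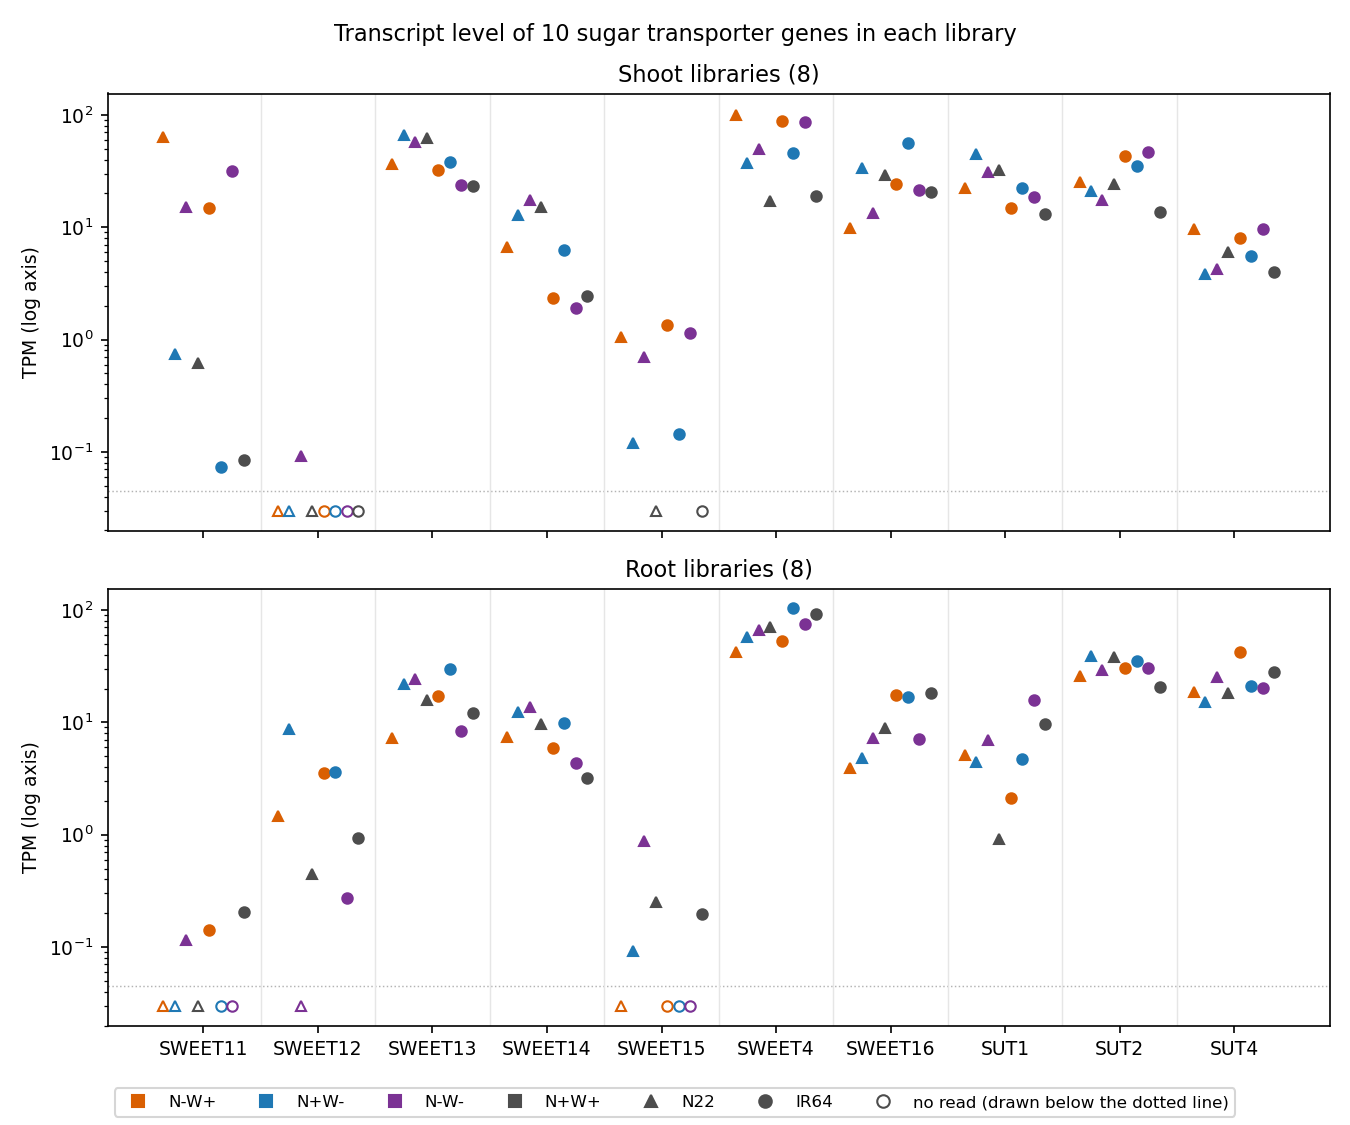
TPM (log axis) of the 10 genes in each of the 8 shoot libraries (top) and 8 root libraries (bottom), by treatment (colour) and genotype (triangles N22, circles IR64), with open symbols below the dotted line for libraries without a read. SWEET11 covers 0.0741 to 63.5 TPM in shoots, while SWEET12 is nearly absent from them.

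The 3 genes with the fewest reads were unevenly spread over the tissues. SWEET11, a sucrose carrier of pollen and seed filling, had 721 reads in shoots and 5 in roots. SWEET12, a carrier of the same clade, had 1 read in shoots and 216 in roots. SWEET15, which acts with SWEET11 in seed filling, had 33 reads in shoots and 14 in roots. The counting test therefore took in 8 of the 10 genes in shoots (without SWEET12 and SWEET15) and 8 in roots (without SWEET11 and SWEET15).

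The first question was how the transporters responded to low nitrogen, taken over both genotypes and both water levels. In shoots, 4 of the 8 genes tested passed the edgeR quasi-likelihood test at a Benjamini-Hochberg adjusted p of 0.05 (18.2% of all genes tested did). SWEET11 and SWEET4 rose, while SWEET16 and SUT1 fell. SWEET11 changed by far the most of the 4.

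In low nitrogen shoots, SWEET11 reached 54.1 CPM (N-W+) and 15.8 CPM (N-W-) in N22, and 16.1 CPM (N-W+) and 30.2 CPM (N-W-) in IR64. In high nitrogen shoots it stayed at 0.941 CPM (N+W-) and 0.750 CPM (N+W+) in N22, and at 0.109 CPM (N+W-) and 0.159 CPM (N+W+) in IR64. Every low nitrogen library thus lay above every high nitrogen library, with 708 reads in the 4 low nitrogen libraries against 13 reads in the 4 others. SWEET11 passed the filter on low counts through its low nitrogen libraries alone, also in the alternative fits that kept this filter. Its adjusted p and the repeated calls are therefore no support separate from these counts. The fitted change was 5.99 ± 0.68 on the log2 scale (SE; edgeR adjusted p = 0.00352), a 63.4-fold higher level whose size rests on those 13 reads. The change was called without any of the 8 shoot libraries in turn (5.28 to 6.73 on the log2 scale, edgeR adjusted p between 0.000192 and 0.0196) and under all 8 other settings (2.31 to 6.48), the smallest being on the log2(RPKM + 1) scale.

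The rise of SWEET11 was present in both genotypes and at both water levels. Against the N+W+ shoots, the N-W+ ratio was 6.04 on the log2 scale in N22 (95% counting interval 4.92 to 7.81) and 6.08 in IR64 (4.15 to 11.98), the wide interval in IR64 coming from the 1 read of its N+W+ library. Between N-W- and N+W- shoots it was 3.95 in N22 (2.91 to 5.53) and 7.54 in IR64 (5.63 to 13.43). Low water without low nitrogen gave ratios of 0.31 in N22 and -0.55 in IR64, on at most 6 reads per library. The N-W- shoots lay below the N-W+ shoots in N22 (-1.78, interval -2.09 to -1.47) and above them in IR64 (0.90, interval 0.57 to 1.26), and the genotype by water term of SWEET11 was -1.77 ± 0.99 (unadjusted p = 0.12, edgeR adjusted p = 1).

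SWEET15 followed the same pattern on far fewer reads. Low nitrogen shoots held 3 (N-W+) and 8 reads (N-W-) in N22 and 9 (N-W+) and 10 reads (N-W-) in IR64, whereas high nitrogen shoots held 1 (N+W-) and 0 reads (N+W+) in N22 and 2 (N+W-) and 0 reads (N+W+) in IR64. In CPM, the low nitrogen libraries (0.750 to 1.51) did not overlap with the high nitrogen libraries (0 to 0.217). With a floor of 3 reads per library, SWEET15 was at least 3.16-fold higher in IR64 N-W+ shoots and at least 2.35-fold higher in IR64 N-W- shoots than in IR64 N+W+ shoots. It did not pass the filter on low counts and has no test in the main fit. The fit without that filter called it, on 0 to 10 reads per library.

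SWEET4 reached 77.3 CPM (N-W+) and 47.4 CPM (N-W-) in N22 and 86.6 CPM (N-W+) and 75.7 CPM (N-W-) in IR64 under low nitrogen. Under high nitrogen it had 43.3 CPM (N+W-) and 19.0 CPM (N+W+) in N22 and 60.7 CPM (N+W-) and 32.5 CPM (N+W+) in IR64. The groups overlapped, the IR64 N+W- library lying above the N22 N-W- library, yet in each of the 4 pairs that share genotype and water level the low nitrogen library was the higher. The fitted change was 0.97 ± 0.23 (SE, log2; edgeR adjusted p = 0.0284). It ranged between 0.85 and 1.08 when shoot libraries were left out in turn and was called only without IR64 N-W+ or N22 N-W-, and without any of the other 6 libraries its edgeR adjusted p lay between 0.0701 and 0.165.

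The low nitrogen difference of SWEET4 was wide under ample water and small under low water. Between N-W+ and N+W+ shoots the ratio was 2.02 in N22 (interval 1.71 to 2.34) and 1.41 in IR64 (1.18 to 1.66). Between N-W- and N+W- shoots it was 0.13 in N22 (-0.08 to 0.35) and 0.32 in IR64 (0.15 to 0.48). SWEET4 was itself higher in N+W- than in N+W+ shoots, by 1.18 in N22 (0.88 to 1.499) and 0.90 in IR64 (0.67 to 1.14). The nitrogen by water term was -1.49 ± 0.46 (SE, log2) and did not pass the test (edgeR adjusted p = 0.509).

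SWEET16, whose Arabidopsis counterpart is a sugar carrier of the vacuole membrane, had 4.95 CPM (N-W+) and 8.16 CPM (N-W-) in N22 and 15.4 CPM (N-W+) and 12.03 CPM (N-W-) in IR64 under low nitrogen. Under high nitrogen its levels were 25.1 CPM (N+W-) and 20.7 CPM (N+W+) in N22 and 48.1 CPM (N+W-) and 22.3 CPM (N+W+) in IR64. No low nitrogen library reached the lowest high nitrogen library. The fitted change was -1.52 ± 0.31 (SE, log2; edgeR adjusted p = 0.0178). The call was lost without IR64 N+W- (edgeR adjusted p = 0.0917), N22 N+W+ (0.0565), N22 N+W- (0.0531) or N22 N-W+ (0.0596), the change remaining between -1.85 and -1.28 without any 1 of the 8 libraries.

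SUT1, which carries sucrose in the phloem and into the filling grain, had 27.2 CPM (N-W+) and 46.2 CPM (N-W-) in N22 and 22.8 CPM (N-W+) and 25.4 CPM (N-W-) in IR64 under low nitrogen. Under high nitrogen its levels were 80.6 CPM (N+W-) and 56.5 CPM (N+W+) in N22 and 46.5 CPM (N+W-) and 34.9 CPM (N+W+) in IR64. The groups overlapped between genotypes, but in each of the 4 pairs of like genotype and water the low nitrogen library was lower, by 0.61 to 1.05 on the log2 scale. The fitted change was -0.83 ± 0.23 (SE, log2; edgeR adjusted p = 0.0464). It stood close to the threshold, since leaving out any 1 of the 8 shoot libraries gave an edgeR adjusted p between 0.0522 and 0.208 with a change of -0.97 to -0.70, and the fit without a filter on low counts gave 0.0734.

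**Figure D2:**
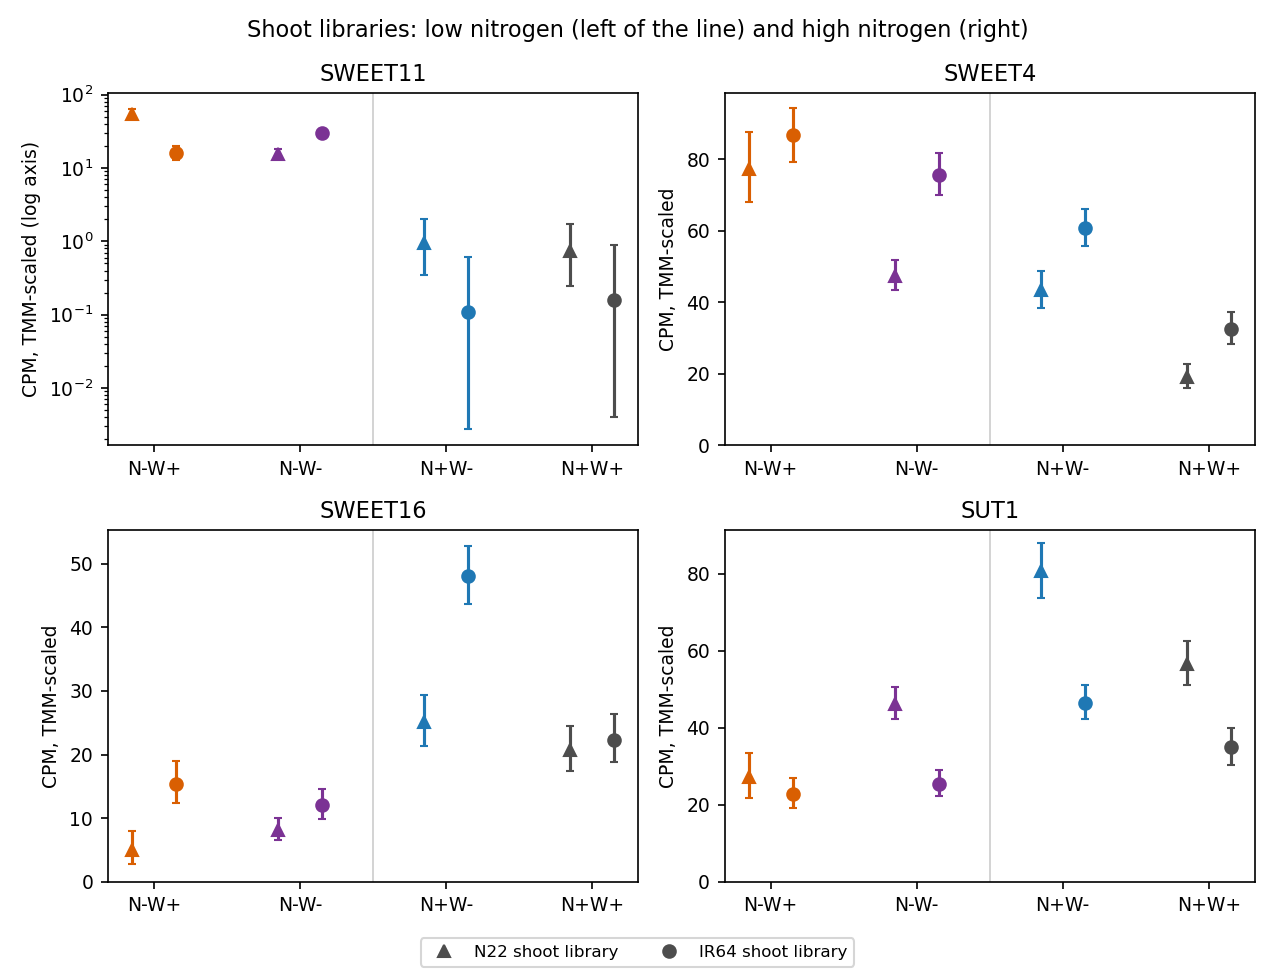
TMM-scaled CPM of SWEET11 (log axis), SWEET4, SWEET16 and SUT1 in the 8 shoot libraries, with low nitrogen left and high nitrogen right of the line, N22 as triangles and IR64 as circles, and bars for the 95% counting interval of each library. SWEET11 lies between 15.8 and 54.1 CPM in low nitrogen shoots and between 0.109 and 0.941 CPM in high nitrogen shoots, and SWEET16 between 4.95 and 15.4 CPM and between 20.7 and 48.1 CPM.

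The calls of SWEET16 and SUT1 depended on the scaling of the libraries. Scaling to library totals moved the median change of all genes in shoots to 0.49, against 0.01 with TMM. Neither gene was then called, with changes of -1.07 for SWEET16 and -0.36 for SUT1. Relative to that median the changes were close to those with TMM, at -1.55 for SWEET16, -0.84 for SUT1, 0.98 for SWEET4 and 5.99 for SWEET11. This closeness is no separate check, because subtracting the median removes most of what TMM also removes. Library totals shift all genes of a pair by the same amount, and in the IR64 pair of N-W+ and N+W+ shoots this common shift left the ratios of SWEET13 (0.37), SWEET16 (0.14) and SUT1 (0.06) above 0.

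The other 4 genes tested in shoots did not pass. SWEET13 was lower in the low nitrogen library of all 4 pairs under TMM, by 0.29 to 1.30, with a fitted change of -0.78 ± 0.29 (SE, log2; edgeR adjusted p = 0.105). SWEET14, a target of blight effectors like SWEET13, gave -1.09 ± 0.44 (edgeR adjusted p = 0.13). SUT2 and SUT4 gave -0.11 ± 0.30 and 0.11 ± 0.29, values smaller than their errors.

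Summed levels of tissue marker genes also differed between low and high nitrogen shoots, though not for every marker list or library. Green tissue markers summed to 7662 to 25630 CPM in low nitrogen shoots, against 38900 to 107400 CPM in high nitrogen shoots, and 5 of 5 of these genes fell. Markers of meristem and young stem summed to 16.1 and 23.4 CPM in IR64 N-W+ and N-W- shoots and to 36.2 and 2.81 CPM in N22 N-W+ and N-W- shoots, against 0.2999 to 2.98 CPM in high nitrogen shoots, and 3 of the 4 tested of 5 rose. Root markers summed to 11.2 to 57.8 CPM in low nitrogen shoots and 8.80 to 21.4 CPM in high nitrogen shoots, where 1 of the 3 tested of 5 rose, 1 fell and the marker CASP1 had 0 reads in every shoot library. Seed remnant markers lay between 0 and 1.85 CPM in low nitrogen shoots and 0.750 and 1.59 CPM in high nitrogen shoots. The 7 genes had 0 reads in the N22 N-W+ library, which held the fewest exon reads. The part of these markers in the transporter results was not tested, and in whole shoots fewer cells of a type and less RNA per cell cannot be told apart.

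In roots, none of the 8 genes tested was called for nitrogen with edgeR (7.36% of all genes were), although 2 had an unadjusted p under 0.05, and DESeq2 and limma called 0. SWEET12 gave -1.80 ± 0.70 (SE, log2; edgeR adjusted p = 0.174), a value that depends on the prior count because the N22 N-W- library held no read. SWEET4 gave -0.47 ± 0.17 (edgeR adjusted p = 0.14), the opposite sign of its change in shoots. The difference between the tissues was tested in a fit over all 16 libraries, in which edgeR called none of the 9 genes tested, against 3.78% of all genes, with 3 at an unadjusted p under 0.05. The tissue by nitrogen term was 1.31 ± 0.54 for SWEET4 (edgeR adjusted p = 0.211), -1.18 for SWEET16 (0.176) and 5.42 ± 2.33 for SWEET11 (0.230), and DESeq2 and limma each called 1 gene, SWEET11.

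**Figure D3:**
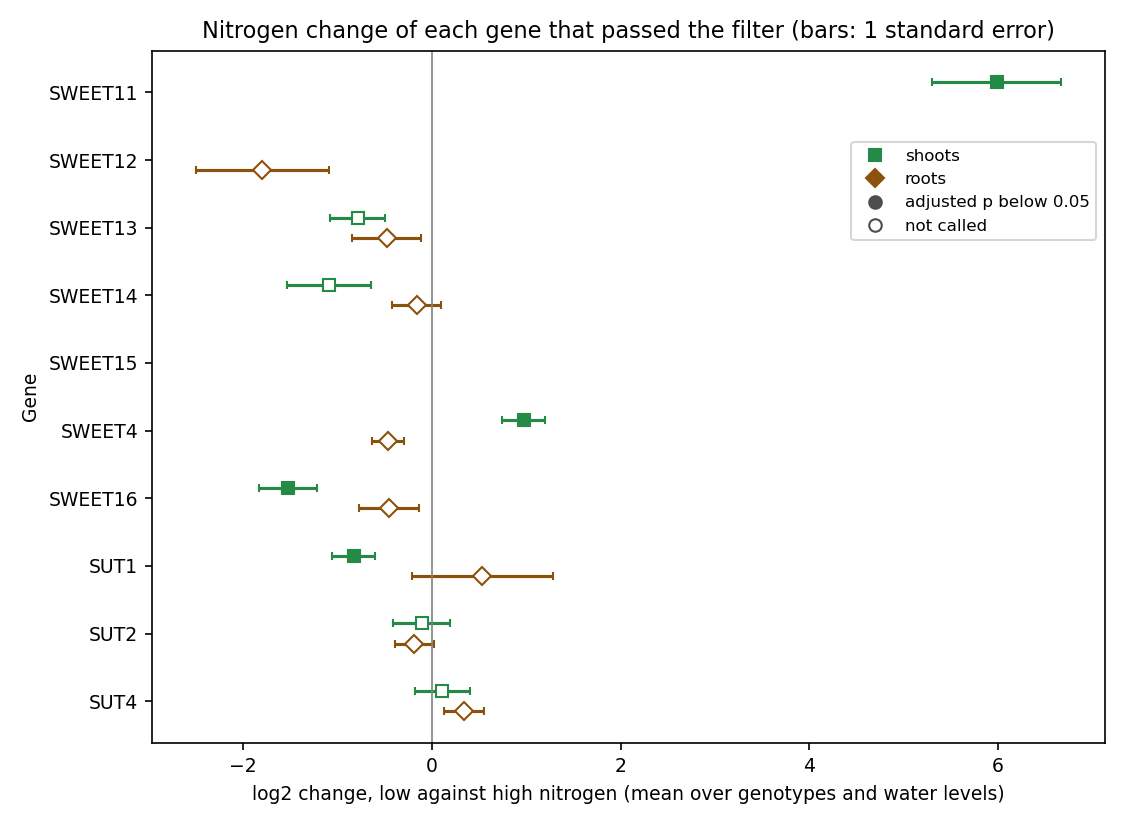
Fitted log2 change between low and high nitrogen for each gene that passed the filter, in shoots (squares) and roots (diamonds), with bars of 1 standard error and filled symbols where the adjusted p was below 0.05. SWEET11 stands alone at 5.99 in shoots, and all filled symbols belong to shoots.

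The second question was which transporters responded to low water, alone or together with low nitrogen. The edgeR test called none of the 8 genes in either tissue for low water (0% of all genes in shoots and 0% in roots), none had an unadjusted p under 0.05, and DESeq2 and limma called 0. Over all genes, 1272 of 22913 in shoots and 1920 of 24285 in roots had an unadjusted p under 0.05 for low water, and DESeq2 called 96 in shoots and 201 in roots. If no gene responded, a share of 0.05 of the genes tested would be under that p. Nor was any called for the nitrogen by water term (0% of all genes in shoots, 0.00412% in roots), with 1 gene in shoots and 2 in roots at an unadjusted p under 0.05, and with 1 gene, SWEET12 in roots, called by DESeq2. The interactions of genotype with nitrogen and of genotype with water called 0 of 8 with all 3 tools, against 0% of all genes with edgeR, and none had an unadjusted p under 0.05.

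Without replicates, single stress libraries were set against the N+W+ library that shares their genotype and tissue, and a ratio only when it exceeded 2 on the log2 scale with at least 1 CPM in either library. Of 95 such pairs with enough reads, 13 exceeded it (13.7%, against 12.4% over all genes), a share near that of all genes. They were 11 higher and 2 lower, and in 6 the counting interval lay beyond the threshold. SWEET11 contributed 4 and SWEET15 2 in shoots, SWEET4 and SWEET16 1 each in N22 N-W+ shoots, and SUT1 4 and SWEET12 1 in roots.

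SWEET12 had its own pattern in roots. Under single stress it held 19 reads (N22 N-W+), 91 reads (N22 N+W-), 49 reads (IR64 N-W+) and 40 reads (IR64 N+W-). Under dual stress the N22 library held 0 reads and the IR64 library 3, and the N+W+ libraries held 5 in N22 and 9 in IR64. By the labels of the files, the single stress libraries were thus higher than both the dual stress library and the N+W+ library in both genotypes. For IR64 this rests on the order of its stress libraries, which the read summary of the study gives otherwise. The same holds for the IR64 root values of SUT1 below.

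In N22, SWEET12 had 8.95 CPM in N+W- roots against 0.516 CPM in N+W+ roots, a log2 ratio of 3.99 (95% counting interval 2.84 to 5.77). The ratio was smaller in N22 N-W+ roots (1.59, interval 0.22 to 3.46), in IR64 N-W+ roots (1.53, interval 0.56 to 2.81) and in IR64 N+W- roots (1.55, interval 0.54 to 2.83). Dual stress against low water alone gave -3.23 in IR64 (interval -5.77 to -1.79), and in N22 a level at least 24.7-fold lower at a floor of 3 reads. Against low nitrogen alone, dual stress gave -3.22 in IR64 (interval -5.75 to -1.80) and a level at least 4.59-fold lower in N22. The nitrogen by water term of SWEET12 had an unadjusted p of 0.0012 and an edgeR adjusted p of 0.174.

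SUT1 differed in roots between treatments, and not in the same way in the 2 genotypes. N22 roots held 8.39 CPM (N-W+), 6.69 CPM (N+W-) and 10.5 CPM (N-W-) under stress against 1.55 CPM in N+W+. IR64 roots held 2.89 CPM (N-W+), 6.22 CPM (N+W-) and 26.0 CPM (N-W-) against 16.6 CPM in N+W+. All 3 stress libraries were thus above the N+W+ library in N22, while in IR64 only that of dual stress was.

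Against the N+W+ roots, the SUT1 ratios in N22 were 2.40 for N-W+ (interval 1.64 to 3.33), 2.07 for N+W- (1.29 to 3.02) and 2.72 for N-W- (1.96 to 3.66), with 15 reads in the N+W+ library. In IR64 they were -2.51 for N-W+ (-3.05 to -2.02), -1.41 for N+W- (-1.84 to -0.999) and 0.65 for N-W- (0.34 to 0.96). Between the genotypes SUT1 was lower in N22 than in IR64 in N+W+ roots (-3.38, interval -4.30 to -2.65) and in N-W- roots (-1.30, interval -1.68 to -0.95), and higher in N-W+ roots (1.53, interval 1.00 to 2.09). The genotype by nitrogen term was 1.67 ± 1.87 and did not pass the test (edgeR adjusted p = 1). It was taken over both water levels in a fit without a nitrogen by water term. It therefore does not test the genotype difference at ample water alone. Meristem and young stem markers summed to 32.9 CPM in N-W+, 54.2 CPM in N+W-, 224.2 CPM in N-W- and 121.4 CPM in N+W+ roots of IR64, the same order as SUT1, and to between 34.6 and 51.8 CPM in N22 roots, and their part in the SUT1 levels was not tested.

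**Figure D4:**
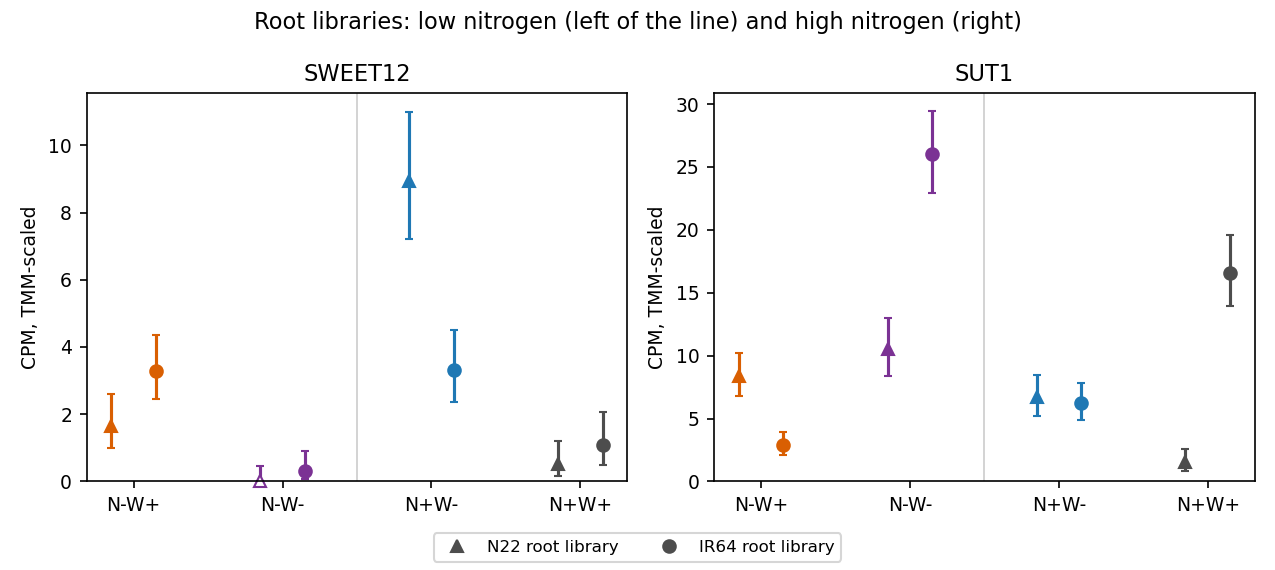
TMM-scaled CPM of SWEET12 and SUT1 in the 8 root libraries, with low nitrogen left and high nitrogen right of the line, N22 as triangles, IR64 as circles and bars for the 95% counting interval. SWEET12 is highest in N22 N+W- roots (8.95 CPM), and SUT1 in IR64 N-W- roots (26.0 CPM).

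The third question was where the genotypes differed. In roots, 2 of 8 genes were called between N22 and IR64 over the 4 treatments (14% of all genes were). SWEET14 was higher in N22, with 8.31 (N-W+), 12.8 (N+W-), 14.2 (N-W-) and 11.2 CPM (N+W+) in N22 roots, against 5.58 (N-W+), 9.12 (N+W-), 4.90 (N-W-) and 3.75 CPM (N+W+) in IR64 roots. The N22 library was higher in each of the 4 treatments, although the ranges overlapped. The fitted difference was 1.02 ± 0.27 (SE, log2; edgeR adjusted p = 0.0408), and leaving out any 1 of the 8 root libraries raised the edgeR adjusted p to between 0.0543 and 0.154 (0.84 to 1.22 on the log2 scale). With limma the call of SWEET14 was lost at both pseudocounts (limma adjusted p = 0.0721 on log2(RPKM + 0.1) and 0.0812 on log2(RPKM + 1)).

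SWEET16 was lower in N22 roots, with 2.62 (N-W+), 2.95 (N+W-), 4.47 (N-W-) and 6.20 CPM (N+W+), against 9.75 (N-W+), 9.20 (N+W-), 4.79 (N-W-) and 12.8 CPM (N+W+) in IR64 roots. The N22 library was lower in each treatment, though under N-W- the interval of the ratio held 0 (-0.10, interval -0.76 to 0.55). The fitted difference was -1.18 ± 0.32 (edgeR adjusted p = 0.0489), and it was called only without either N-W- library, the other 6 omissions giving edgeR adjusted p between 0.139 and 0.169. With library totals neither gene was called, and SWEET16 was then higher in N22 in 1 of 4 root pairs.

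In shoots, no gene was called between the genotypes with edgeR (6.62% of all genes were), 4 had an unadjusted p under 0.05, DESeq2 called 1 and limma 0. The gene called by DESeq2 was SWEET14, with 5.57 (N-W+), 15.99 (N+W-), 18.0 (N-W-) and 18.3 CPM (N+W+) in N22 shoots against 2.52 (N-W+), 9.02 (N+W-), 1.80 (N-W-) and 4.46 CPM (N+W+) in IR64 shoots. Again the N22 library was higher in each treatment, most of all under N-W- (3.28, interval 2.59 to 4.16). The fitted difference was 1.81 ± 0.46 (edgeR adjusted p = 0.0633). SWEET4 and SWEET16 were lower in N22 in 4 of 4 shoot pairs, of which 1 each turned higher with library totals, and SUT1 was higher in N22 in 4 of 4 (0.26 to 0.86) without passing the test (0.66, edgeR adjusted p = 0.143).

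Shoots were then compared with roots of the same genotype and treatment, in 8 pairs, on CPM scaled over all 16 libraries. With edgeR, 4 of the 7 genes tested were called (43.4% of all genes were), of which SUT1, SWEET13 and SWEET16 were higher in shoots and SUT4 was lower. These 4 calls were also made in each of the 16 fits that left out 1 library and under all 9 other settings. SUT2, SWEET14 and SWEET4 did not pass (0.18, 0.10 and -0.13 on the log2 scale).

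SUT1 lay between 25.04 and 91.7 CPM in shoots (median 45.6) against 1.41 to 23.7 CPM in roots (median 6.89). The shoot library was higher in 8 of 8 pairs, by 0.18 (IR64 N-W-) to 5.45 (N22 N+W+), with a fitted difference of 2.66 ± 0.54 (SE, log2; edgeR adjusted p = 0.00253). SWEET13 lay between 26.2 and 104.0 CPM in shoots (median 63.0) against 8.33 to 28.3 CPM in roots (median 17.7), a difference of 1.75 ± 0.19 (edgeR adjusted p = 4.77e-05) that was the most even over the pairs (1.32 to 2.32). For SUT1 the ranges of shoots and roots did not overlap, and for SWEET13 only the IR64 N-W- shoot library lay below the highest root library.

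SWEET16 had 4.81 to 56.7 CPM in shoots against 2.40 to 11.9 CPM in roots. The ranges overlapped, but the shoot library was higher in 8 of 8 pairs (0.89 to 3.39), with 1.72 ± 0.32 in the fit (edgeR adjusted p = 0.00145). SUT4 had 8.24 to 16.5 CPM in shoots against 24.1 to 64.0 CPM in roots. Its ranges did not overlap, and the fitted difference was -1.51 ± 0.21 (edgeR adjusted p = 0.000214).

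SUT2 was higher in shoots than in roots in the 4 IR64 pairs (0.37 to 0.99) and lower in the 4 N22 pairs (-0.49 to -0.28). All 8 counting intervals excluded 0, but with library totals the IR64 N+W+ pair (-0.40) and the N22 N-W+ pair (0.08) changed sign. The tissue by genotype term of SUT2, a fit added after these ratios had been seen, was -1.08 ± 0.32 with an unadjusted p of 0.00816 and an edgeR adjusted p of 0.421, and 0.0162% of all genes were called by that fit. DESeq2 called 1 of the 9 genes for this term, SUT2, and limma 0. For the tissue by water term edgeR, DESeq2 and limma called 0 of 9, none had an unadjusted p under 0.05, and edgeR called 0% of all genes.

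**Figure D5:**
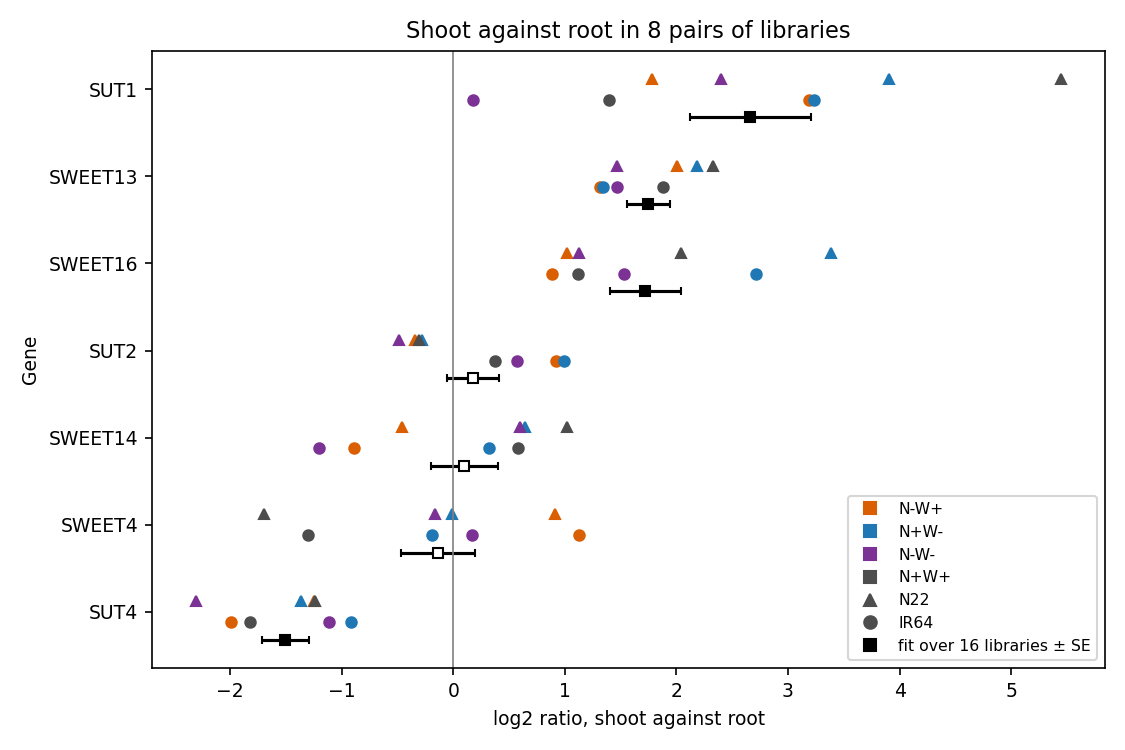
Log2 ratio of shoot to root for 7 genes in 8 pairs of libraries, by treatment (colour) and genotype (triangles N22, circles IR64), with black squares for the fit over 16 libraries and bars of 1 standard error, filled where called. SUT1, SWEET13 and SWEET16 lie right of 0 and SUT4 left of 0 in 8 of 8 pairs, and the N22 and IR64 symbols of SUT2 lie on opposite sides of 0.

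Genes that make, split or carry sucrose and its products were described beside the transporters for low nitrogen in shoots. Their counts stand beside the 18.2% of all genes called in that comparison. Among 14 invertases tested of 18, which split sucrose, 1 rose and 4 fell (median change -0.59, against 0.01 over all genes). The riser was GIF1, the cell wall invertase of grain filling, at 7.74 ± 1.08 (SE, log2; edgeR adjusted p = 0.0067), while OSINV3 gave -2.93 and OSCIN1 -1.63. Of 6 sucrose synthases, SUS1 rose by 3.13 (edgeR adjusted p = 0.00551) and SUS4 fell (-2.19, edgeR adjusted p = 0.00331), and of 4 sucrose-phosphate synthases, which make sucrose, SPS1 (-2.01) and sps11 (-1.25) fell. Of 7 monosaccharide transporters 1 fell, of 2 alpha-amylases 1 fell, and of 5 other SWEET genes tested none was called with edgeR. The other SUT genes, SUT3 and SUT5, did not pass the filter in either tissue.

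With library totals these shoot counts became 1 up and 2 down for invertases, 0 up and 1 down for sucrose-phosphate synthases, and 1 up and 0 down for monosaccharide transporters, alpha-amylases and other SWEET genes. In roots, where 7.36% of all genes were called, 1 of 16 invertases rose under low nitrogen (OsNIN4, 1.12) and 6 fell, among them OsCIN5 (-2.08) and GIF1 (-2.03), and 1 of 5 other SWEET genes fell (OsSWEET6b, -2.56). The tissue by nitrogen term was called for GIF1 (9.43, edgeR adjusted p = 0.00609) and for SUS1 (3.96, edgeR adjusted p = 0.0262).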

How the data were processed

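The authors trimmed the reads with sickle, mapped and counted them in CLC Genomics Workbench on IRGSP-1.0 genes with RAP-DB IDs (the processing notes also name CASAVA), and deposited for each library the counts of exon reads per gene with the TPM and RPKM values computed from them. IRGSP-1.0 is the Nipponbare genome, a genotype other than N22 and IR64. Strand is not given in the sources used here. RNA was pooled over biological replicates before library construction.

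The 10 genes and the gene lists beside them were chosen with earlier results of these data known. Total exon counts were scaled by TMM. Genes passing edgeR's filterByExpr were fitted with edgeR 4.0.16 (R 4.3.3, robust quasi-likelihood) within each tissue on genotype and treatment (3 residual degrees of freedom), with genotype interactions (2), and for shoot against root with 8 blocks of genotype and treatment (7). The fit of the genotype interactions held no nitrogen by water term. Treatments serve as replicates of genotype, and genotypes of treatment. The residual of the fits on genotype and treatment thus mixes unlike responses of the genotypes with noise between pooled libraries. Their p-values are relative to that residual. Fits of tissue by nitrogen or water (5) and tissue by genotype (6) were added after the data were seen. P-values were Benjamini-Hochberg adjusted over all genes, and a gene was called at 0.05. The SE was the log2 change divided by the square root of F. Pairs of libraries were compared as log2 ratios with a prior count of 0.5 and exact 95% binomial intervals, which cover counting error only. Alternatives were DESeq2 1.42.0 on the counts, limma 3.58.1 on log2(RPKM + 1) and log2(RPKM + 0.1), library totals, uniquely mapped exon reads, fits without a filter or without robust estimation, and leaving out each library. For pairs of libraries the minimum was also raised to 5 CPM or dropped. Counts with set changes were simulated for nitrogen in shoots, genotype in roots, shoot against root, tissue by nitrogen and genotype by nitrogen in shoots. The set changes were at least 2 on the log2 scale, in genes with ample expected reads and with the same dispersion for all. Only part of them had to be recovered, and no minimum recovery was required for genotype by nitrogen. The simulation does not bear on smaller changes or on genes with few reads. Simulated noise was independent between libraries, and no change with water was set. The simulation therefore does not bear on the water terms or the genotype interactions either. All 10 genes were described, and genes of the lists were named when called, at most 3 per list by size of change.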

Additional observations from a re-analysis of the deposited data

How the results depend on the processing

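No paired analysis was possible because each group holds 1 library and the labels give no replicate numbers that could serve as a block. Shoots and roots were instead blocked by genotype and treatment, as described. The count of transporters called for nitrogen in shoots was 4, and became 2 with library totals (SUT1 and SWEET16 lost), 1 with limma on log2(RPKM + 0.1) and 1 on log2(RPKM + 1) (SWEET11 only), and 1 to 5 when single libraries were left out. Without a filter it was again 4, with SWEET15 in place of SUT1. Between N22 and IR64 the count in roots was 2, and became 0 with library totals, 1 with limma on log2(RPKM + 1) (SWEET14 lost), 1 without robust estimation and 0 to 1 when single libraries were left out, and limma on log2(RPKM + 0.1) again gave 2, with SWEET4 in place of SWEET14. In shoots it was 0, and became 1 (SWEET14) with DESeq2, with library totals, without a filter and with uniquely mapped exon reads, and 0 to 1 (SWEET11, without either N-W- library) when single libraries were left out. DESeq2 gave 1 instead of 0 for nitrogen by water in roots (SWEET12), for tissue by genotype (SUT2) and for tissue by nitrogen (SWEET11), where limma also gave 1 with each pseudocount. The causes of these changes were not tested, nor was the part of the low exon share of the N22 N-W+ shoot library. RPKM is scaled to fragments rather than exon reads. SWEET11 thus had 4.055 RPKM at 63.49 TPM in that library, against 6.806 RPKM at 31.59 TPM in IR64 N-W- shoots. Of the stress pairs, 13 exceeded the ratio, against 4 on log2(RPKM + 1), which shrinks ratios of low genes, and 22 without the 1 CPM minimum. For the genes called in a fit and the 13 stress pairs over the ratio, 287 values under alternatives were computed, of which 224 kept their call, 63 lost it and 0 changed sign. Part of this tally was fixed in advance. Dropping the 1 CPM minimum cannot remove a pair, and with uniquely mapped reads the counts of these genes stay the same, so only the scaling can move. Among the other pairs of libraries 10 ratios whose counting interval excluded 0 changed sign with library totals. The 4 shoot to root calls did not change under any alternative, nor did the counts of 0 for water and for the genotype interactions. Depth limits SWEET12 in shoots and SWEET11 in roots, with at most 2 reads in a library, and SWEET15 in both tissues.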

Other observations

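The share of exon reads that span an exon junction differed between the transporters. Over all 16 libraries it was 2.91% for SUT2 (95% exact interval 2.51 to 3.35) and 4.85% for SWEET14, against 30.3% for SUT1, 35.1% for SUT4 and 37.7% for SWEET4. Among 11616 protein-coding genes with at least 3 exons and 500 reads the median was 21.9%, with the 5th and 95th percentiles at 1.05% and 75.3%, so all 10 genes lie within that range. SUT2, with 8 exons, lies at percentile 10.8 and SWEET14, with 5 exons, at percentile 16.2. These background genes were not matched by exon number, and the reason for the low shares was not tested. Within 2000 bases of SUT2 lie 3 annotated genes and within 2000 bases of SUT4 lie 2, while none lies that near to the other 8 genes.

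Across the 8 root libraries, the genes whose log2 CPM followed that of SWEET4 most closely were Os07g0125500 (Pearson r = 0.974), Os08g0514033 (0.971) and Os06g0349750 (0.971), among 24285 genes. Across the 8 shoot libraries, those most like SWEET13 were Os09g0371000 (r = 0.990), Os02g0184800 (0.982) and Os03g0282800 (0.981), among 22913 genes. These are descriptions over 8 libraries that share treatments, genotypes and scaling.

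SWEET11 made up 23.1% (N-W+) and 7.31% (N-W-) of the summed TPM of the 10 transporters in low nitrogen shoots of N22 and 6.498% (N-W+) and 13.1% (N-W-) in those of IR64, against at most 0.337% in any high nitrogen shoot library.

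Among related genes, calls between shoots and roots are to be read beside the 43.4% of all genes called. Of 16 invertases tested, 5 were higher and 3 lower in shoots, from OsNIN7 (7.21 on the log2 scale) to OsCIN5 (-8.13), and of 6 other SWEET genes 2 were higher, OsSWEET1b (7.30) and OsSWEET2b (2.46), and 1 lower, OsSWEET6a (-2.25). SPS1 was higher in shoots by 4.47. Between the genotypes, OsSWEET2b was lower in N22 roots (-3.34) and OsSWEET1a higher in N22 shoots (1.35).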
